A study of Mus musculus with 80 samples.

Results

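The olfactory receptor (Olfr) gene clusters of the mouse were described here by how much of them lay inside peaks of H3K27me3, the trimethylation of lysine 27 on histone H3 that Polycomb repressive complexes deposit, in fibroblasts purified from the uterus. Members were the protein-coding genes of the mm10 autosomes whose symbol is Olfr followed by a digit, 1104 of 20665 autosomal protein-coding genes, and they fell into 53 clusters on 16 chromosomes when neighbours within 500 kb of each other were joined. The widest gap joined measured 362.7 kb, between Olfr649 and Olfr651 on chromosome 7, and the narrowest gap not joined measured 666.3 kb, between Olfr716 and Olfr467 on the same chromosome. The clusters spanned 30.24 Mb, 1.23% of the autosomes, and 23 of them with 10 or more members held 1002 of the genes. Another 20 clusters held 92 genes, and 10 genes stood alone.

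H3K27me3 was mapped by CUT&RUN, an assay that uses an antibody to bring a nuclease to chromatin and sequences the fragments it frees. The conditional knockouts (cKO) lacked Kdm6b, an H3K27 demethylase, in cells with a history of Pgr-Cre or of Pdgfra-Cre expression, and were compared with Kdm6b f/f females labelled with no Cre; both kinds were mated with B6 males. Pgr drives Cre in progesterone receptor-positive epithelium, stroma and muscle and Pdgfra in fibroblasts, and the mark was read only in the cells that purification kept. In the Pgr-Cre line, samples came from uterine tissue lying between implantation sites (IIS) at gestation day 5.5 (GD5.5), GD8.5 or GD14.5, or at the implantation sites themselves (IS) at GD14.5 or GD18.5; in the Pdgfra-Cre line they came from IS at GD14.5. B6CBAF1/J females made up a second set of 4 groups: naturally mated (GD5.5 IIS), mated to a vasectomized male (GD5.5 uterus), not pregnant but given progesterone for 3 days, and GD0.5 uterus. Each of these 16 groups is 1 peak list called on 3 pooled samples, so a list has no replicate values; 48 of the 80 samples enter the lists, and the other 32 are not analysed here.

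Olfactory receptors are G protein-coupled receptors with which sensory neurons of the nose detect odorants, and they form the largest gene family of the mouse. Each mature sensory neuron expresses 1 allele of 1 receptor gene, while the remaining receptor genes are held silent, in those neurons by constitutive heterochromatin with H3K9 and H4K20 trimethylation. Most members have their whole coding sequence in a single exon. Polycomb silencing by H3K27me3 is best known at CpG-rich promoters of developmental genes, and Kdm6b removes the mark.

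Promoters of 938 members were found in RefSeq (GRCm38.p6, the mm10 build), each given from 250 bases before to 50 bases after the annotated start. Their median GC content was 35%, against 56.7% over all 16457 autosomal promoters in the table, and their median number of CG pairs was 1, against 14. No Olfr promoter was CpG-rich, meaning an observed over expected CG ratio of at least 0.6 with a GC content of at least 50%, whereas 47.2% of all promoters were. CG pairs were missing altogether from 316 Olfr promoters, 33.7%, against 4.95% of all promoters. The 4 promoters below are shown because their genes recur in the results: Olfr525 and Olfr687 lost coverage in cKO, Olfr1373 gained it, and Olfr63 carried a strong peak in more lists than any other member and was picked after its values were seen. Many Olfr gene models, such as the short one of Olfr525, hold little more than the coding exon, so that the annotated start may lie downstream of the start of transcription. For Olfr1373, the start in the sequence table lies inside the gene span used for coverage. Capitals mark the CG pairs.
Olfr525 (chr7:140322451-140322750, plus strand): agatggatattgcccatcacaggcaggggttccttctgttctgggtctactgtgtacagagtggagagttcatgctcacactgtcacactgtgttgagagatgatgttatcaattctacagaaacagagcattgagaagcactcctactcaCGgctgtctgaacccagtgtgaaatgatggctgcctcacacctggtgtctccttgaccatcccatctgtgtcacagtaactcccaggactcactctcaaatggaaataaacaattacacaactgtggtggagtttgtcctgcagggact
Olfr687 (chr7:105227467-105227766, plus strand): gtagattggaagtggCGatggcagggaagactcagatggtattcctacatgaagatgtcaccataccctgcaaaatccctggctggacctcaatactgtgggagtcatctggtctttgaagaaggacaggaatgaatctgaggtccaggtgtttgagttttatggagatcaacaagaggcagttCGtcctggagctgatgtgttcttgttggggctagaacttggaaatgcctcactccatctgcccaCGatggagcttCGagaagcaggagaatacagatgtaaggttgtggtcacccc
Olfr1373 (chr11:52145479-52145778, minus strand): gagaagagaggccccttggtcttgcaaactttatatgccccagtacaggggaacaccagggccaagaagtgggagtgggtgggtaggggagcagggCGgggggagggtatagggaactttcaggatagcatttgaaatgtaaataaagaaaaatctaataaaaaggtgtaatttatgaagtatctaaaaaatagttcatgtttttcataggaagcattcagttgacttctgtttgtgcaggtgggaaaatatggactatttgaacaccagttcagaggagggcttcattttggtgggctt
Olfr63 (chr17:33268476-33268775, plus strand): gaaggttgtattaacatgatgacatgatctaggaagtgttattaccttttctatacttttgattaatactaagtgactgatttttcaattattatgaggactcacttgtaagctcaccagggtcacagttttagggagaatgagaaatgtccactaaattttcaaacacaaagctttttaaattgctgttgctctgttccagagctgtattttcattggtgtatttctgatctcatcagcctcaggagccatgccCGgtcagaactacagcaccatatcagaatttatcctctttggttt
Olfr687 held 4 CG pairs and the other three promoters 1 each. The letters TAATTA, the core bound by homeodomain proteins such as Lhx2, stood in 176 Olfr promoters, 18.8%, against 4.61% of all promoters, and CCCNNGGG, the core bound by Ebf factors, stood in 29, 3.09%, against 15.7%. These shares were not adjusted for the median GC content, 35% in Olfr promoters and 56.7% in all promoters, and binding was not measured. Both motifs are palindromes, so each match holds for both strands, a stretch that matches one cannot match the other, and neither was present in the 4 promoters shown. The 176 promoters with TAATTA lay inside peaks by 13.9% in cKO lists and 22.3% in control lists, and the 762 without it by 21.9% and 30.8%.

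The peaks were called leniently, and this bears on all values below. In the Kdm6b set, a list contained 221218 to 287521 peaks, which covered 609 to 740 Mb, and the 4 B6CBAF1/J lists held 131841 to 167482 peaks over 680 to 704 Mb. The number of reads behind a list is unknown. Peaks inside the clusters had a median fold over background, as the authors' caller gave it, of 1.113 to 1.144 in cKO lists and 1.11 to 1.147 in control lists, and other autosomal peaks had 1.123 to 1.145 and 1.113 to 1.143. The gene Kdm6b itself was covered by peaks over 0.932% to 7.1% of its span in cKO lists and 0% to 6.75% in control lists, which says nothing of its deletion. Among the markers of cell types, 8 of 10 fibroblast genes, Col1a1, Col1a2, Col3a1, Dcn, Lum, Vim, Fn1 and Pdgfrb, were free of peaks in all 12 lists, and the fibroblast list averaged 1.496% to 6.90% coverage per cKO list and 1.53% to 4.40% per control list. The fibroblast genes with peaks were Pdgfra, at 23.4% in cKO and 22.9% in control, and Thy1, at 16.1% and 8.3%. Des and Tagln of the smooth muscle markers and Cd68 of the immune markers were free of peaks as well. Epithelial markers averaged 88.3% to 93.9% in cKO lists and 83.4% to 90.7% in control lists, immune markers 56.4% to 61.2% and 55.2% to 63.2%, endothelial markers 19.1% to 29.2% and 14.8% to 23.5%, and smooth muscle markers 24.01% to 35.65% and 27.71% to 35.59%. Cdh1, an epithelial cadherin, was the 1 of 7 epithelial markers that rose in cKO, and Tek, an endothelial receptor, the 1 of 6 endothelial markers. The epithelial list was higher in cKO by 4.77 ± 3.59 points and the endothelial list by 4.48 ± 2.56 points (SD, n = 6 pairs), each in 6 of 6 pairs. Their part in the results below was not tested.

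The first comparison asked how loss of Kdm6b altered H3K27me3 over the clusters. In cKO fibroblasts, less of the clusters lay inside peaks than in control fibroblasts at each stage, site and Cre line. For Pgr-Cre, 15.1% (cKO) against 19.5% (control) of all cluster bases were covered at GD5.5 IIS, 16.3% against 23.7% at GD8.5 IIS, 16.6% against 27% at GD14.5 IIS, 17.4% against 24.1% at GD14.5 IS and 18.0% against 26.8% at GD18.5 IS. In the Pdgfra-Cre pair the values were 17.7% in cKO and 18.3% in control. The 6 cKO lists thus sat between 15.1% and 18.0% and did not overlap the 6 control lists, between 18.3% and 27%. The mean difference was -6.42 ± 3.46 percentage points (SD, n = 6 pairs), lower in 6 of 6 pairs, and smallest in the Pdgfra-Cre pair, at -0.679 points. That pair also differed most in covered length, at 731.8 Mb for cKO against 608.9 Mb for control. In pooled cells, a mark in fewer cells and less of the mark per cell cannot be told apart.

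**Figure D1:**
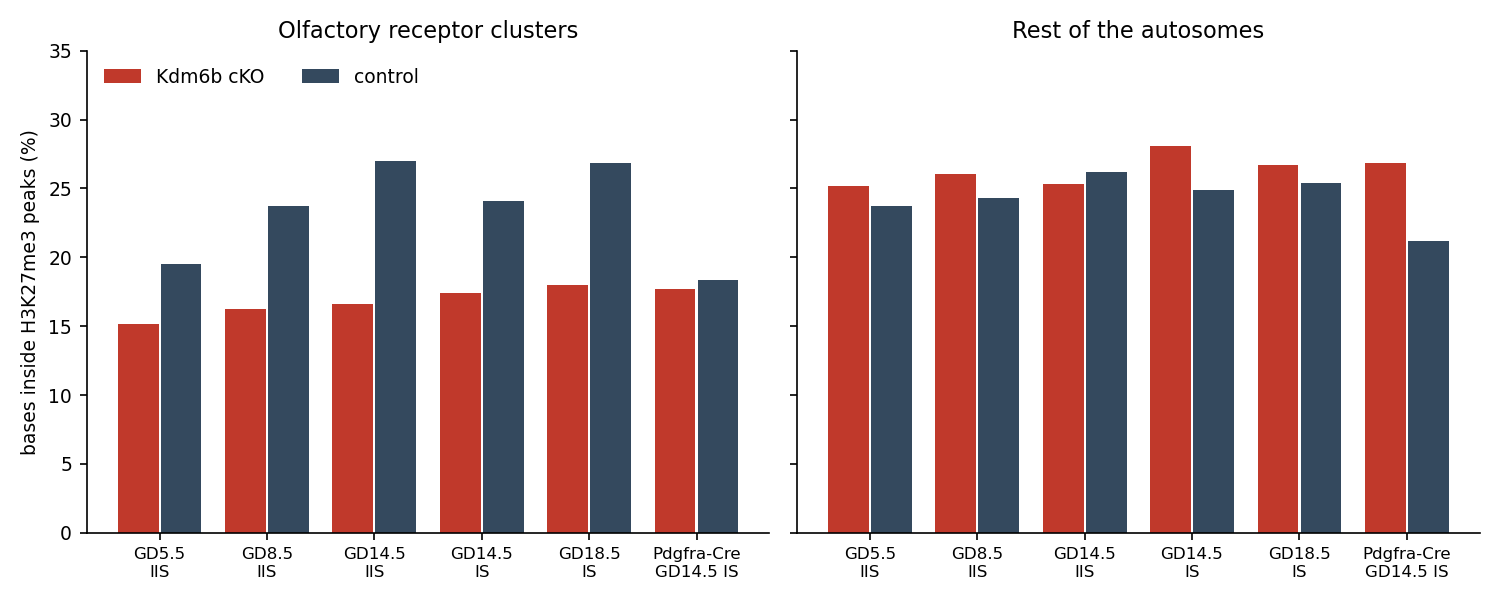
Percent of bases inside H3K27me3 peaks in all 53 olfactory receptor clusters (left) and in the rest of the autosomes (right), by pair of peak lists, with Kdm6b cKO in red and control in dark blue; each bar is 1 list made from 3 pooled samples, so bars carry no error. In the clusters the cKO bar is the lower one in 6 of 6 pairs, and in the rest of the autosomes it is the higher one in 5 of 6.

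The rest of the autosomes was covered over 25.2% to 28.1% in cKO lists and 21.2% to 26.2% in control lists, and the cKO list was higher in 5 of 6 pairs, by 5.69 points in the Pdgfra-Cre pair; the exception was GD14.5 IIS, at -0.816 points. With 2 kb on either side, an Olfr gene was covered on average over 18.9% to 22.6% in cKO lists and 23.0% to 34.7% in control lists, a mean difference of -8.755 ± 4.63 points (SD, n = 6 pairs), lower in 6 of 6. Over the other 19561 autosomal genes the mean difference was 0.463 ± 1.33 points, lower in 2 of 6 pairs. In the Pdgfra-Cre pair, the mean Olfr difference was -0.957 points while autosomal genes as a whole differed by 2.30 points. With each list reduced to the same covered length, the Pdgfra-Cre pair differed by -3.965 points over Olfr genes and 0.0142 points over all autosomal genes, and the 6 pairs by -7.105 points on average over Olfr genes. Of the 1104 members, 722 had a mean difference below 0, 90 above 0 and 292 exactly 0, and 267 had no peak in any of the 12 lists.

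The clusters differed widely in how much of the mark they held (see the plot of clusters with 10 or more genes). Among the 23 clusters with 10 or more genes, the most covered was a 21-gene cluster on chromosome 11 (chr11:58454915-58842042), with a mean of 65.1% over the 12 lists. Next came a 13-gene cluster on chromosome 4 (chr4:118665519-118934840), at 51.9%, and a 12-gene cluster on chromosome 13 (chr13:21072349-21703965), at 51.4%. The least covered of the 23 were a 15-gene cluster on chromosome 7 (chr7:86268730-86695384), at 0.197%, a 37-gene cluster on chromosome 2 (chr2:111230853-112157007), at 0.398%, and a 35-gene cluster on chromosome 9 (chr9:18754692-20336094), at 2.44%. The largest cluster of all, with 222 genes on chromosome 2 (chr2:85330967-90401674), was covered by 4.08% in cKO and 8.33% in control lists. The cluster of class I receptors on chromosome 7 (chr7:102476773-105369317), fish-like receptors by ancestry, with 126 Olfr genes and the beta-globin genes within it, was covered by 21.4% in cKO and 30.5% in control lists. Clusters of 2 to 9 genes had a median coverage of 53.4%, against 19.3% in clusters of 10 or more, and 2 lone genes had no peak in any of the 12 lists.

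**Figure D2:**
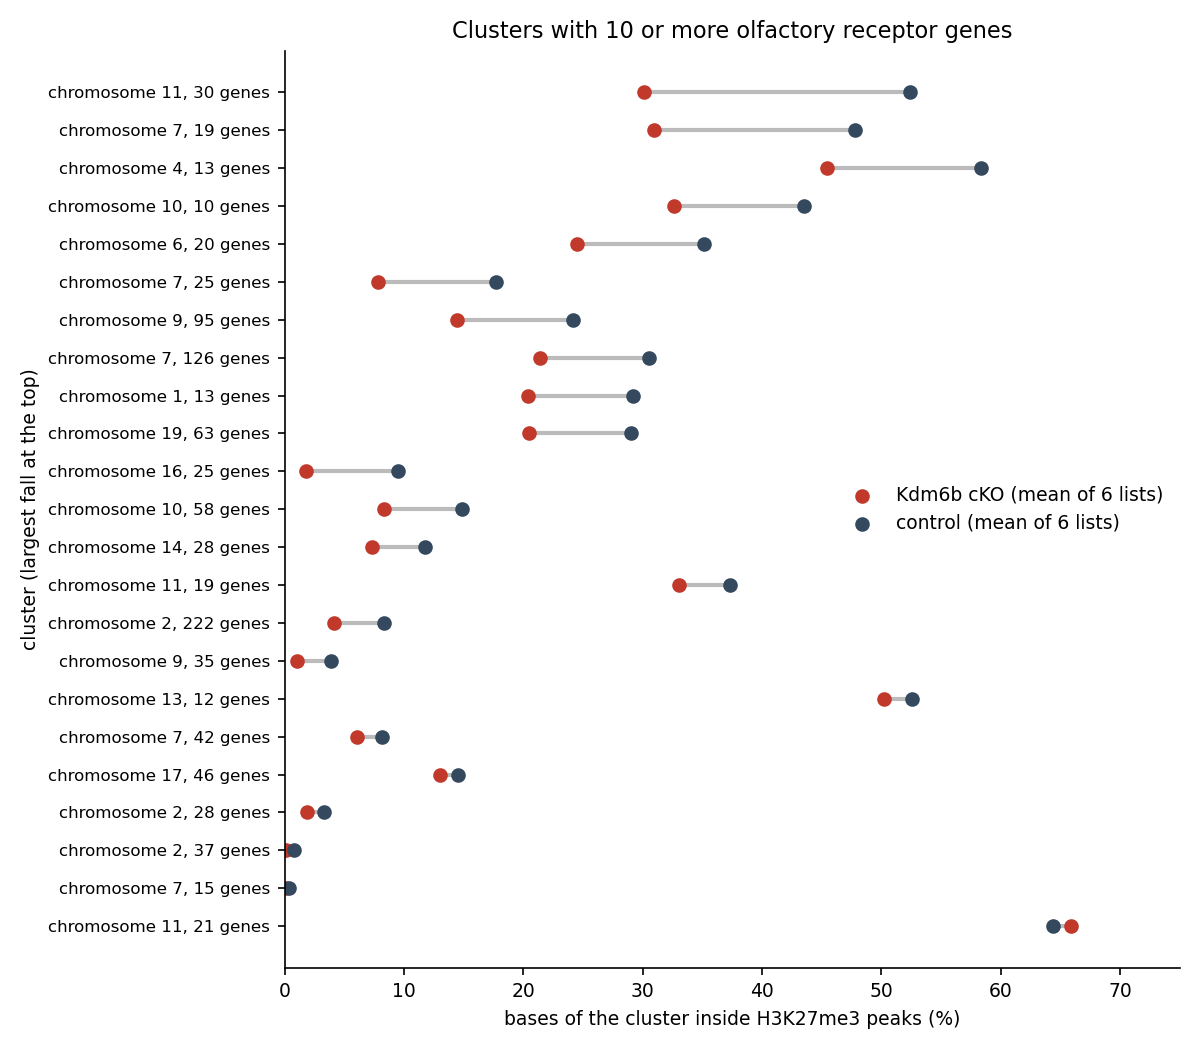
Percent of each cluster inside H3K27me3 peaks for the 23 clusters with 10 or more olfactory receptor genes, as the mean of 6 Kdm6b cKO lists (red) and 6 control lists (dark blue), ordered by their difference with the largest fall at the top. In 22 of 23 clusters the cKO mean is the lower one, and the 21-gene cluster of chromosome 11 at the bottom is the exception.

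Of the 23 clusters with 10 or more genes, 22 had a mean difference below 0, and 14 were lower in cKO in 6 of 6 pairs. The 30-gene cluster of chromosome 11 (chr11:73350859-74365609) differed most. Its coverage in cKO lists was 24.8%, 29.1%, 28.5%, 26.4% and 35.7% in the Pgr-Cre groups (GD5.5, GD8.5 and GD14.5 IIS, then GD14.5 and GD18.5 IS) and 36.3% for Pdgfra-Cre, against 39.2%, 54.7%, 61.6%, 57.2%, 65.7% and 36.2% in the matching control lists. The 5 Pgr-Cre pairs did not overlap between cKO and control, the Pdgfra-Cre pair was level, and the mean difference was -22.3 ± 12.8 points. A 19-gene cluster at the far end of chromosome 7 (chr7:140162010-140705191) differed by -16.9 ± 9.58 points, and the 13-gene cluster of chromosome 4 by -12.9 ± 5.67 points. The 21-gene cluster of chromosome 11 stood apart, with 63.7% to 68.9% covered in cKO lists and 62.2% to 67.2% in control lists, a difference of 1.51 ± 3.07 points that was lower in 3 of 6 pairs. The 2 least covered of the 23 differed by -0.273 ± 0.378 and -0.670 ± 0.677 points, with little coverage to lose. Among smaller clusters, 6 genes on chromosome 4 (chr4:43695000-43855463) formed the only cluster of the 53 that was higher in cKO in 6 of 6 pairs, by 4.31 ± 3.62 points.

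In windows of 100 kb, each tested with limma on the 6 paired differences and counted as changed at a Benjamini-Hochberg adjusted p under 0.05, 106 of 162 cluster windows fell in cKO and 5 rose. Over all 16801 autosomal windows tested, 14.6% fell and 30.4% rose. The median difference was -10.2 points in the cluster windows tested and 1.73 points in all windows tested, and without the filter it was -2.60 points over the 297 cluster windows and 0.210 points over all windows. Without the filter 96 cluster windows fell and 6 rose, 32.3% and 2.02%, against 8.33% and 20.8% of all windows. The windows that fell included 16 of the 18 tested in the 95-gene cluster of chromosome 9 (chr9:37711348-40188094), 15 of 18 in the class I cluster of chromosome 7, 12 of 14 in the 222-gene cluster of chromosome 2 and 9 of 10 in the 30-gene cluster of chromosome 11. None of the 3 tested in the 21-gene cluster of chromosome 11 fell. Only 162 of the 297 cluster windows had the mean coverage of at least 5% needed for the test. The p-values measure the spread between pairs of pooled lists. GD14.5 IS and IIS fibroblasts could come from the same females.

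Inside the clusters, mean coverage was highest next to the edge and lower in each step to 350 kb inside, while fewer clusters entered the mean. Steps of 50 kb were averaged over the edges of those of the 23 large clusters that reach so far. The first 50 kb inside were covered by 36.03% in cKO and 42.9% in control lists, and the step from 300 to 350 kb inside by 6.49% and 14.0%. Outside the edges the lists lay close together, at 27.9% in cKO and 28.8% in control over 500 kb. The difference there was -0.885 ± 1.74 points, lower in 5 of 6 pairs. Inside the edges they averaged 17.53% and 25.01%, a difference of -7.48 ± 3.91 points, lower in 6 of 6 pairs. The difference was of like size at each inside step, between -6.01 and -8.09 points, and began close to the edge: the last 50 kb outside differed by -2.64 ± 1.93 points. From 350 to 500 kb inside, the steps were covered by 8.09%, 8.38% and 8.85% in cKO and 14.1%, 15.9% and 16.6% in control. As a ratio, cKO coverage was 0.839 of control in the first inside step, 0.463 at 300 to 350 kb, the lowest, and 0.574, 0.526 and 0.533 in the 3 steps beyond it. Fewer clusters reach that far, with 46 windows at the edge, 26 at 300 to 350 kb and 20 in the last step. The decline and the ratios thus mix distance from the edge with a change of clusters, and these were not separated.

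**Figure D3:**
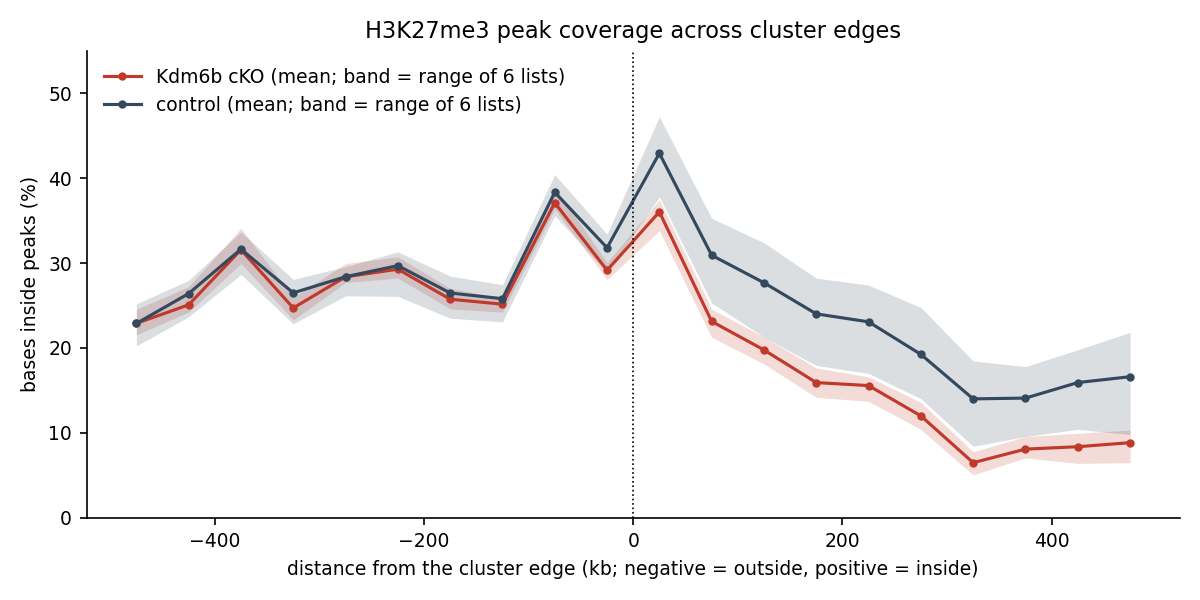
Percent of bases inside H3K27me3 peaks in 50 kb steps from 500 kb outside to 500 kb inside the edges of the 23 clusters with 10 or more olfactory receptor genes, as the mean of 6 lists per genotype with the range of the lists as a band (Kdm6b cKO red, control dark blue). The curves lie close together outside the edge and part inside it, where cKO is lower at each step. Fewer clusters enter the inner steps, with 46 windows in the first inside step and 20 in the last.

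Within the clusters, Olfr gene spans were covered more than the sequence between genes. Olfr spans, 2.12 Mb in all, averaged 22.6% in cKO and 31.2% in control lists, the 26.4 Mb between genes 16.1% and 22.5%, and the 1.76 Mb of other gene spans 21% and 25.1%. The differences were -8.62 ± 4.70 points, lower in 6 of 6 pairs, over Olfr spans, -6.40 ± 3.41 points, lower in 6 of 6, between genes, and -4.13 ± 2.96 points, lower in 5 of 6, over other gene spans. Olfr promoters were covered by 20.4% in cKO and 29.2% in control lists, against 27.4% and 27.3% of all autosomal promoters.

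Gene by gene, coverage with 2 kb flanks was tested with limma over all 10205 genes of any chromosome with a mean of at least 5%, 571 of them members and 533 members too thinly covered to enter. In cKO, 86 members fell and 3 rose at an adjusted p under 0.05, 15.1% and 0.525% of those tested, against 6.45% and 7.99% of all genes tested. The filter bears on these counts: 97 of the members tested, and 12 of the 86 that fell, had a mean under 5% in cKO and passed through the controls. Without it, 16 of 1104 members fell and 2 rose, 1.45% and 0.181%, against 0.652% and 1.74% of all genes. The median difference was -13.7 points over the tested members and -3.08 points over all 1104, and 0 over all genes either way. Of the 86 that fell, 74 were lower in 6 of 6 pairs, against 104 of all 1104 members. The 86 were called on these same differences, which favours agreement between pairs and large sizes among them. The 86 genes came from 24 clusters, with 11 in the 222-gene cluster of chromosome 2, 10 in the 95-gene cluster of chromosome 9, 9 in the class I cluster and 8 in the 63-gene cluster of chromosome 19 (chr19:11828077-13919972). Their differences ran from -55.4 to -10.9 points with a median of -33.3, and their median coverage was 25.8% in cKO and 65.5% in control. Of the other members tested, 482 did not pass. The count depends on the width of the window and on single pairs: it was 147 with 5 kb flanks, 25.6% against 7.5% of all genes, and 21 without flanks, 3.61% against 4.35% of all genes, where the members' share was the lower one. With 1 pair left out it was 48 without GD5.5 IIS, 27 without GD8.5 IIS, 22 without GD14.5 IIS, 26 without GD14.5 IS, 31 without GD18.5 IS and 92 without the Pdgfra-Cre pair. The members' shares were 8.41%, 4.73%, 3.85%, 4.55%, 5.43% and 16.1% in that order. Those of all genes were 3.31%, 1.89%, 2.215%, 2.52%, 2.23% and 5.96%. At equal covered length 27 fell and 0 rose, 7.11% and 0% against 4.21% and 3.00% of all genes, and with peaks of -log10 p of at least 1 alone 1 fell, 0.403% against 0.697%.

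Among the 10 members with the smallest p that fell in 6 of 6 pairs, Olfr18 (chr9:20313892-20336094) had 2.81%, 4.24%, 6.49%, 1.80% and 4.01% coverage in the Pgr-Cre cKO lists (GD5.5, GD8.5 and GD14.5 IIS, then GD14.5 and GD18.5 IS) and 1.53% in the Pdgfra-Cre cKO list, against 24.4%, 33.39%, 30.97%, 23.78%, 35.98% and 21.44% in controls in the same order, which holds for the genes below. The genotypes did not overlap, and the difference was -24.8 ± 4.75 points (limma, adjusted p = 0.00335). Olfr18 had a mean of 3.48% in cKO and 28.3% in control, so it passed the 5% filter through the controls. These genes were picked by their p in these same lists, so a lack of overlap is no separate evidence. Olfr873, its neighbour at chr9:20300211-20301170, had 0%, 17.1%, 18.2%, 16.4%, 0% and 0% in cKO, against 39.7%, 66.7%, 66.0%, 62.7%, 69.1% and 36.1% in controls. Again every cKO list was below every control list, and the difference was -48.1 ± 11.5 points (limma, adjusted p = 0.00450). These 2 genes sit at the edge of a cluster that is almost bare inside, at 2.44%.

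On chromosome 7, Olfr525 (chr7:140322701-140323630) had 8.54%, 0%, 0%, 12.6%, 24.2% and 12.1% in cKO, against 45.9%, 30.5%, 42.9%, 49.5%, 77.1% and 43.5% in controls, with no overlap and a difference of -38.6 ± 8.30 points (limma, adjusted p = 0.00381). Its 300-base promoter, printed above, lay inside a peak in 1 cKO list, GD14.5 IS, and in 1 control list, GD18.5 IS, so most of the change lay elsewhere in its window. In the same cluster, Olfr46 (chr7:140601340-140611124) averaged 34.2% in cKO and 73.9% in control, with Pgr-Cre GD14.5 IS lowest in both genotypes, at 0% and 46.4%, and the highest cKO list, at 50.6%, above the lowest control list. Olfr687 in the class I cluster (chr7:105227717-105276461) had 17.4% to 39.1% in cKO and 41.2% to 58.1% in controls, again without overlap, and differed by -26.5 ± 7.14 points (limma, adjusted p = 0.00589). Nearby, Olfr654 (chr7:104587719-104588874) differed by -52.5 ± 15.6 points, the largest of the 10, with 0% to 38.8% in cKO and 46.9% to 89.2% in controls. Olfr630 (chr7:103754150-103757350), close to the beta-globin genes, was listed at 0% in 5 cKO lists and 5.55% in the sixth, GD14.5 IIS, against 7.01% to 16.0% in controls. Its mean was 0.926% in cKO and 11.95% in control, so it too passed the filter through the controls.

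Olfr390 and Olfr930 overlapped between genotypes but were lower in cKO within each pair. Olfr390 in the 30-gene cluster of chromosome 11 (chr11:73786940-73787875) had 28.6% to 67.7% in cKO and 56.2% to 100% in controls. Olfr930 (chr9:38930173-38931099) had 27.4% to 87.7% in cKO and 50.6% to 100% in controls. For Olfr1353 (chr10:78963309-78970612), cKO lists held 11.98% to 35.31% and control lists 35.86% to 83.93%, which left a narrow gap and no overlap. With peaks of -log10 p of at least 1 alone, the adjusted p of Olfr873, Olfr687, Olfr390 and Olfr930 was 0.244 or above, and the other 6 were not tested there. At equal covered length, where each list was reduced to the same number of covered bases, Olfr687, Olfr46 and Olfr390 kept an adjusted p under 0.05, at 0.0116, 0.0176 and 0.0127. Olfr525, Olfr873, Olfr654, Olfr930 and Olfr1353 did not, at 0.437, 0.0772, 0.0949, 0.0820 and 0.313, and Olfr18 and Olfr630 were not tested there. Without flanks, Olfr525, Olfr654, Olfr630, Olfr930 and Olfr1353 did not pass in limma, with an adjusted p of 0.413, 0.150, 0.1325, 0.324 and 0.0637. Olfr18, Olfr873, Olfr687, Olfr46 and Olfr390 kept an adjusted p under 0.05 in that setting.

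**Figure D4:**
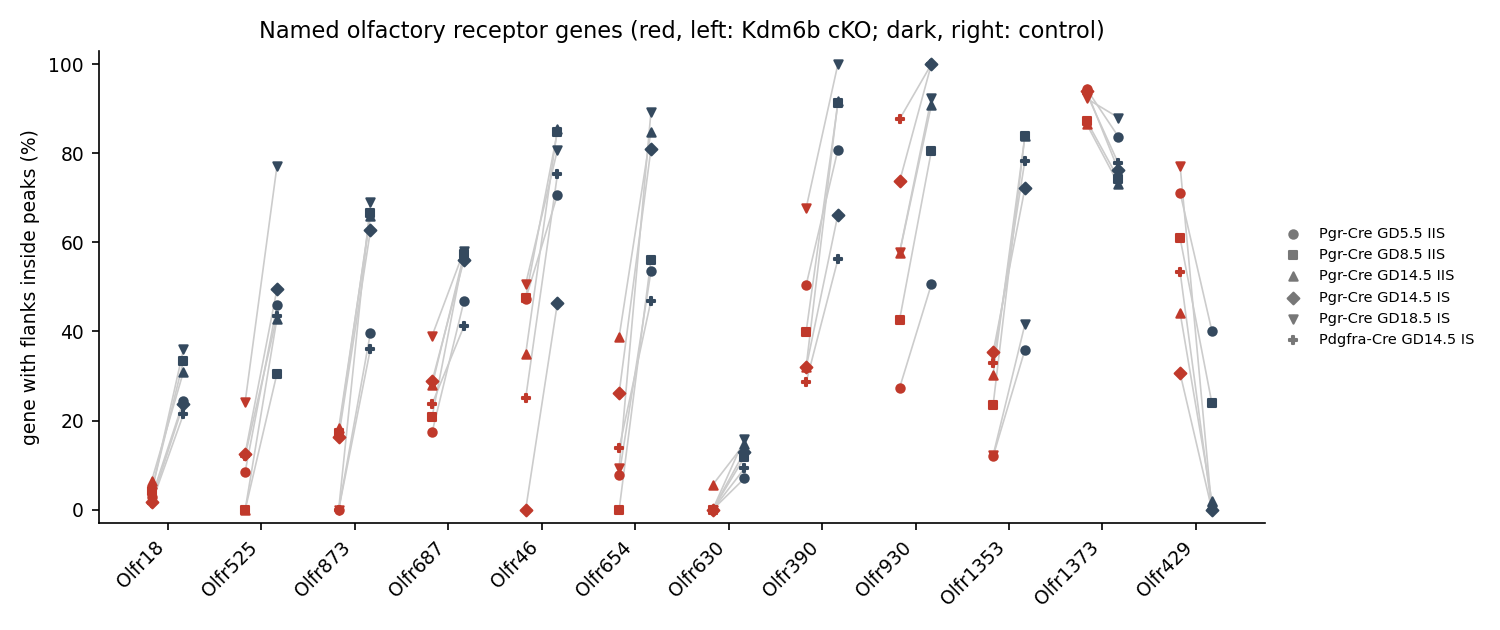
Percent of each named gene with 2 kb flanks inside H3K27me3 peaks, for the 10 olfactory receptor genes with the smallest p that fell and the 2 that rose in 6 of 6 pairs; red points at left are Kdm6b cKO lists, dark points at right control lists, marker shapes give the pair and grey lines join its lists. The first 10 genes slope upward from cKO to control in each pair, and Olfr1373 and Olfr429 slope downward.

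Olfr1373 and Olfr429 rose in 6 of 6 pairs. Olfr1373 (chr11:52144593-52149130) had 86.6% to 94.4% in cKO and 73.1% to 88.0% in controls, a difference of 12.5 ± 4.71 points (limma, adjusted p = 0.0149). Its promoter was covered by 57.7% to 100% in the 6 cKO lists, whereas 5 of the 6 control lists had 0% and GD18.5 IS had 100%. Olfr429 (chr1:174089038-174089980) had 71.1%, 61.0%, 44.2%, 30.6%, 77.2% and 53.4% in cKO, against 40.1%, 23.9%, 1.98%, 0%, 0% and 0% in controls, a difference of 45.2 ± 17.8 points (limma, adjusted p = 0.0152). At equal covered length the difference of Olfr1373 was 15.0 points with a limma adjusted p of 0.0578, and that of Olfr429 was 2.48 points with an adjusted p of 0.886. The third to rise, Olfr94, was higher in 5 of 6 pairs, at 96.2% in cKO and 80.1% in control.

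Of the receptors known for particular roles, 9 of 10 listed were matched and all 9 were tested, and by limma 0 passed, with 0 at an unadjusted p under 0.05. Olfr78 and Olfr558, neighbours in the class I cluster with reported roles outside the nose, Olfr78 in blood pressure control and oxygen sensing, had 50.1% in cKO and 54.4% in control, and 89.2% and 91.3%, with differences of -4.23 ± 11.0 and -2.19 ± 7.74 points. Olfr544, an azelaic acid receptor, had 13.6% and 8.87%. Olfr16, the mouse sperm receptor known as MOR23, had 19.7% and 6.40%, higher in 5 of 6 pairs, with a difference of 13.3 ± 21.5 points (limma, adjusted p = 0.327). Olfr2, known as I7, was listed at 0% in all cKO lists, against 30.7%, 22.9% and 10.4% in 3 control lists and 0% in the others. Olfr17, known as P2, had 2.698% and 19.9%, and Olfr1507, known as MOR28, 6.28% and 16.0%. Olfr160, at the edge of the 95-gene cluster of chromosome 9, was covered by 97.1% and 98.4%, and Olfr1393 by 23.7% in each genotype.

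The 113 other protein-coding genes within cluster bounds averaged 22.0% in cKO and 24.8% in control, and differed by -2.79 ± 2.76 points, lower in 4 of 6 pairs, and of the 63 tested 7 fell and 2, Klhl33 and Ubd, rose, where 6.45% and 7.99% of all genes tested did. Hbb-bh1, an embryonic beta-like globin gene within the class I cluster, fell: it had 18.1%, 25%, 50.6%, 20.1%, 31.8% and 4.67% in cKO, against 26.4%, 68.8%, 100%, 42.3%, 89.6% and 53.5% in controls, a difference of -38.41 ± 19.01 points, with overlap between genotypes (limma, adjusted p = 0.0260). The adult gene Hbb-bt fell as well, at 31.2% in cKO and 46.5% in control (limma, adjusted p = 0.0369), and Trim30a and Trim34b, members of an antiviral gene family there, fell too. Hbb-bs, Hbb-bh2 and Hbb-y did not pass, with differences of -22.85 ± 25.92, -24.03 ± 21.84 and -10.56 ± 28.99 points. Fads2b, in the 222-gene cluster of chromosome 2, fell too, with 21.6% in cKO and 52.1% in control, and Zfp735 had a difference of -27.37 ± 20.65 points that did not pass.

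The vomeronasal receptors, which detect pheromones, form families of their own outside the clusters. The 230 Vmn1r genes averaged 12.4% in cKO and 18.2% in control, and differed by -5.74 ± 2.62 points, and the 122 Vmn2r genes 5.25% and 9.64%, a difference of -4.39 ± 1.66 points, both lower in 6 of 6 pairs. Of those tested, 11 of 75 Vmn1r and 13 of 27 Vmn2r genes fell and 0 rose, against the same 6.45% and 7.99% of all genes tested, with Vmn1r10 at 20.6% in cKO and 75.7% in control, Vmn1r189 at 36.6% in cKO and 84.5% in control and Vmn2r80 at 43.9% and 80.7%. The 15 trace amine receptors (Taar), most of which also serve the nose, averaged 73.8% in cKO and 74.6% in control, and 2 rose, among them Taar1 with 37.7% and 10.9%. Of the bitter taste receptors, 0 of 17 tested fell and 1 rose, Tas2r119, with 69.2% in cKO and 0.556% in control. Tas2r109 had 35.6% and 69.5% and Tas2r124 4.81% and 32.4%, and neither passed. Ms4a genes averaged 28.2% and 27.9%, with Ms4a13 the 1 that fell of 16 tested. The formyl peptide receptors (Fpr) and sweet and umami receptors (Tas1r) had 3 and 1 genes tested; 0 passed in limma, and 1 in each family had an unadjusted p under 0.05. Differences between families were not tested.

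Genes that carry the odour signal inside a sensory neuron were set beside the receptors. Of 16 listed, 14 were tested with limma, 0 fell or rose, and 2 had an unadjusted p under 0.05. Rtp2, a receptor transporter, had 88.3% in cKO and 74.4% in control, Cnga4, a channel subunit, 40.2% and 53.1%, Omp, the olfactory marker protein, 32.02% and 20.9%, and Slc24a4, a calcium exchanger, 66.0% and 58.8%. Adcy3, the adenylyl cyclase of this pathway, was free of peaks in all 12 lists. Of 13 transcription and chromatin factors linked to receptor choice, 5 were tested and Ebf2 alone rose, with 71.0% in cKO and 66.1% in control (limma, adjusted p = 0.0363). Lhx2 had 90.2% and 96.1%, Ebf4 38.6% and 32.3%, and Ebf3 71.7% and 69.6%. Ldb1, Kdm1a, Atf5, Ddit3, Bptf, Tshz1 and Emx2 were free of peaks in all 12 lists.

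Large single-gene differences, with at least 50 points between 1 cKO list and its control list, ran mostly one way. At Pgr-Cre GD5.5 IIS, 28 of the 1104 members were lost and 0 gained, against 0.227% and 0.0919% of all autosomal genes. At GD8.5 IIS 80 were lost and 1 gained, against 0.61% and 0.174% of all genes. At GD14.5 IIS 101 were lost and 0 gained, against 1.05% and 0.111%, and 101 members made up 9.15% of the family. At GD14.5 IS 58 were lost and 3 gained, against 0.508% and 0.232%, and at GD18.5 IS 71 and 2, against 0.707% and 0.0919%. In the Pdgfra-Cre pair 10 were lost and 4 gained, against 0.0677% and 0.237% of all genes, so losses were the more frequent among the members while gains were among all genes. The deepest losses included Olfr1047 in the 222-gene cluster of chromosome 2, with 0% in cKO and 100% in control at both GD14.5 IIS and GD18.5 IS, and Olfr538, with 0.547% and 99.0% at GD18.5 IS. At GD5.5 IIS Olfr965 had 0% in cKO and 78.8% in control, and at GD8.5 IIS Olfr64 had 0% and 91.1%. The gains included Olfr225 at GD14.5 IS, with 88.2% in cKO and 14.0% in control, and Olfr402 in the Pdgfra-Cre pair, with 89.4% and 20.1%. As shares of the members, the losses were 2.54%, 7.25%, 9.15%, 5.25% and 6.43% in the Pgr-Cre pairs in the order above and 0.906% in the Pdgfra-Cre pair. Members also passed 50 points more often than all genes where gains and losses were near level. At GD14.5 against GD8.5 IIS in cKO, 0.453% gained and 0.362% lost, against 22 and 18 of 20665 autosomal genes. With 1 list per side these counts have no test.

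Across gestation the control lists spanned a wider range than the cKO lists. In controls, cluster coverage was 19.5% at GD5.5, 23.7% at GD8.5 and 27% at GD14.5 IIS, and 24.1% at GD14.5 and 26.8% at GD18.5 IS. In cKO it was 15.1%, 16.3% and 16.6% in IIS and 17.4% and 18.0% in IS. Mean coverage of Olfr genes likewise was 24.97%, 30.7% and 34.6% in control IIS and 18.9%, 20.1% and 20.9% in cKO IIS. The gap between genotypes was therefore 6.08 points wide at GD5.5, 10.7 at GD8.5 and 13.7 at GD14.5 in IIS; whether it differs between stages was not tested, since each stage has 1 list per genotype. These are the same lists as in the genotype comparison. The covered length of the control IIS lists was 665.8, 680 and 730.2 Mb on these days and that of the cKO IIS lists 691.7, 704.6 and 684.4 Mb. With lists reduced to equal covered length, the genotype differences in IIS were -5.58, -7.68 and -7.70 points, nearly level between GD8.5 and GD14.5. For equal covered autosomal length they were -5.49, -8.43 and -7.46 points, so the gap did not widen at each step.

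Within controls, 20 members gained at least 50 points and 2 lost them at GD8.5 against GD5.5, where 0.198% and 0.0726% of all autosomal genes did. At GD14.5 against GD8.5 IIS 18 gained and 1 lost, against 0.256% and 0.0387%, and at GD18.5 against GD14.5 IS 17 gained and 2 lost, against 0.145% and 0.0339%. At GD14.5, IS against IIS, 0 gained and 16 lost, against 0.0194% and 0.208%. Of the 23 large clusters, 20, 22 and 22 were higher at the later day in these 3 steps, and 23 were lower in IS than in IIS. Among the genes, Olfr1047 had 86.4% at GD8.5 and 12.9% at GD5.5, Olfr384 84.4% at GD14.5 and 0% at GD8.5 IIS, and Olfr243 89.2% at GD18.5 and 8.08% at GD14.5 IS. Olfr1417 went the other way, with 15.3% at GD8.5 and 98.5% at GD5.5. At equal covered length the counts of these comparisons were 39 gained and 9 lost at GD8.5, 24 and 21 at GD14.5 IIS, 32 and 15 at GD18.5, and 22 and 30 in IS. At equal covered autosomal length GD14.5 IIS had 22 gained and 26 lost, so its count did not keep to one way. At equal covered length the mean Olfr differences of the 3 steps were 2.91, 0.563 and 2.15 points, in place of 5.77, 3.81 and 3.70, and that of IS against IIS was -0.902 in place of -3.57 points.

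In B6CBAF1/J females, the clusters were covered by 17.3% at GD5.5 IIS after natural mating, 19.1% at GD5.5 after a vasectomized mating and 15.6% after progesterone, against 20.4% at GD0.5. The rest of the autosomes differed less, at 24.2%, 24.4% and 23.6%, against 24.6% at GD0.5. Of the 23 large clusters, 19, 18 and 21 were lower than at GD0.5. Mean Olfr gene coverage was 22.3%, 24.5% and 19.7%, against 26.7% at GD0.5. At equal covered length the differences from GD0.5 were -2.48, -1.47 and -3.80 points, in place of -4.41, -2.26 and -6.99 points.

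**Figure D5:**
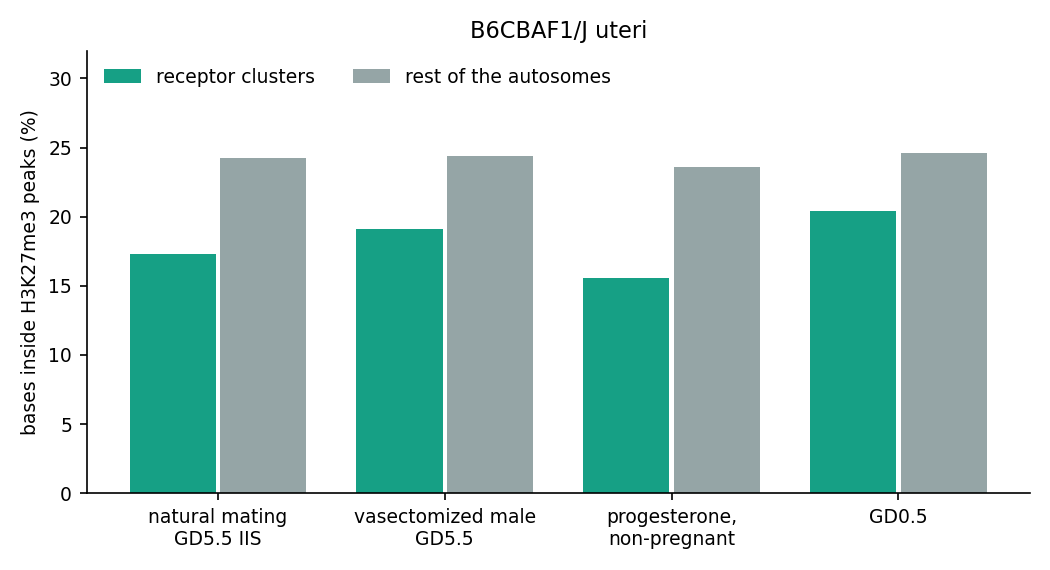
Percent of bases inside H3K27me3 peaks in the olfactory receptor clusters (green) and in the rest of the autosomes (grey) for the B6CBAF1/J groups, each bar 1 list made from 3 pooled samples and so without error. Clusters are lowest after progesterone, at 15.6%, and highest at GD0.5, at 20.4%, while the rest of the autosomes lies between 23.6% and 24.6%.

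By single genes, 60 members lost and 1 gained at least 50 points after progesterone, where 0.682% and 0.406% of all autosomal genes did, and 23 lost and 5 gained after natural mating, against 0.252% and 0.319%. After the vasectomized mating the counts were near level, 12 lost and 10 gained, against 0.281% and 0.281%. Olfr171 had 0% at GD5.5 after either mating and 100% at GD0.5, and Olfr65 and Olfr60 had 0% after progesterone and 100% at GD0.5. Olfr545, in the class I cluster, gained in all 3 groups, with 87.2% after natural mating, 100% after the vasectomized mating and 88.7% after progesterone, against 31.7% at GD0.5. Natural and vasectomized GD5.5 lists differed by -2.15 points in mean Olfr coverage. The 3 comparisons share the GD0.5 list, and sites differ, since the natural list is from IIS.

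Strong peaks were rare in the clusters. Peaks with -log10 q of at least 2 made up 0% to 0.197% of cluster peaks in cKO lists and 0.0593% to 0.477% in control lists, against 0.0452% to 0.211% and 0.152% to 0.962% of other autosomal peaks. Such a peak touched 20 members in any of the 16 lists, 1.81%, against 12.9% of all autosomal genes. Olfr63 on chromosome 17 (chr17:33268726-33269676) stood out, with a strong peak in 5 of 6 cKO lists, 6 of 6 control lists and 4 of 4 B6CBAF1/J lists, and its promoter, shown above with 1 CG pair, lay wholly inside peaks in all 16 lists. Olfr15 on chromosome 16 had one in 0 of 6 cKO, 3 of 6 control and 4 of 4 B6CBAF1/J lists, and Olfr1416 on chromosome 1 in 0, 3 and 0. Both were covered by 100% in all 16 lists when peaks of any strength count. With strong peaks alone, the mean Olfr difference between cKO and control was -0.228 points, against -8.755 points with peaks of any strength. By pair, strong peaks alone gave -0.790 to 0 points over Olfr genes and -2.96 to 0.319 points over all autosomal genes. All autosomal genes fell further than Olfr genes in each pair but Pgr-Cre GD14.5 IIS, where they differed by 0.319 points and Olfr genes by 0. Per Mb of cluster, cKO lists held 67.0 to 81.4 peaks and control lists 76.85 to 111.4, against 89.3 to 104.6 and 76.65 to 96.72 per Mb of the rest of the autosomes.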

How the data were processed

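The data are 16 deposited broad peak lists of H3K27me3 CUT&RUN in purified uterine fibroblasts. The submitters' processing notes name mm10 and Picard, and the labels STAR 2.7.5c, samtools 1.10, bedtools 2.29.1, bedGraphToBigWig 2.8 and macs2 2.2.7.1. Per the labels, each list belongs to 3 samples, and its peak names mark them as pooled. The deposited lists give each peak a fold over background (a ratio), a -log10 p and a -log10 q from the authors' peak caller; the smallest -log10 p in the Kdm6b set was 0.340. The number of reads per list is unknown, and errors are SDs over the 6 pairs. The peak names inside both Pgr-Cre GD14.5 IS lists have another form than those of the other Kdm6b lists.

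Overlapping peaks were merged, and the percent of each gene span plus 2 kb on either side, of each cluster and of each 100 kb window inside them was computed. X-linked Olfr genes (6) were left out, and 43 Olfr windows overlap another. An autosome was taken to end at its last peak. Paired differences (cKO minus control) of genes or windows with a mean of at least 5% were tested with limma 3.58.1 in R 4.3.3, called at a Benjamini-Hochberg adjusted p under 0.05, after a test on simulated data; p-values measure the spread between pairs. Single comparisons have 1 list per side and count differences of at least 50 points. The alternative with equal covered length dropped each list's weakest peaks by p until all lists of a set covered 80% of the shortest, 487 Mb in the Kdm6b set and 544 Mb in B6CBAF1/J. Both sets were made separately and were not compared.

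Members and lists were chosen with earlier results of these data known. Named genes are the 10 Olfr genes with the smallest p that fell and all with the same sign in 6 of 6 pairs that rose, a list of 10 studied receptors, extreme clusters, the largest single changes and members among the 4 largest of each other list; 1 gene that this rule names is not reported here. Coverage was computed in python 3.11.15 (numpy 2.4.6, pandas 2.3.3).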

Additional observations from a re-analysis of the deposited data

Results flagged for a closer look

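Among 46 sets of 6 paired differences (the mean, all clusters together, the 23 large clusters and the named genes), the highest or lowest pair was far from the others in 2, about the 1 in 20 that chance gives. In the 13-gene cluster of chromosome 4, the Pdgfra-Cre GD14.5 IS pair differed by -2.002 points, whereas the other 5 pairs lay between -18.0 and -12.1 points. For Olfr1507, known as MOR28, the Pdgfra-Cre pair differed by 15.75 points, with 15.7% in cKO and 0% in control, whereas the other pairs lay between -22.5 and -9.89 points.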

How the results depend on the processing

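The mean Olfr gene difference was below 0 under each alternative run. It was -0.228 points with peaks of -log10 q of at least 2 and -3.98 points with -log10 p of at least 1, and that of all clusters was -0.154 points with -log10 q of at least 2; the difference of all clusters was -2.97 points with -log10 p of at least 1, and the remaining alternatives gave -10.3 to -7.10 points for genes and -7.57 to -5.15 points for clusters. All autosomal genes differed by -2.96 to 0.319 points by pair with -log10 q of at least 2, and further down than Olfr genes in each pair but GD14.5 IIS. In 3 of 6 pairs more members were lost than gained with -log10 q of at least 2, against 6 of 6 otherwise. Members that fell (86) and rose (3) numbered 27 and 0 at equal covered length, 36 and 0 at equal covered autosomal length, 147 and 6 with 5 kb flanks, 21 and 1 without flanks, 134 and 5 after subtraction of the median difference, 1 and 0 with -log10 p of at least 1, and 0 and 0 of 10 tested with -log10 q of at least 2, where 2 had an unadjusted p under 0.05. Without a filter on coverage 16 fell. The members' share that fell was below that of all genes without flanks (3.61% against 4.35%) and with -log10 p of at least 1 (0.403% against 0.697%), and above it at equal covered length (7.11% against 4.21%), equal covered autosomal length (10.1% against 5.52%), with 5 kb flanks (25.6% against 7.5%) and with no filter (1.45% against 0.652%). After subtraction of the median difference it was 23.5% against 9.82%. With 1 pair left out, 22 (without GD14.5 IIS) to 92 (without Pdgfra-Cre) fell and 2 to 3 rose: 48 without GD5.5 IIS, 27 without GD8.5 IIS, 26 without GD14.5 IS and 31 without GD18.5 IS. Among members, 3.85% to 16.1% fell and 0.350% to 0.525% rose there, against 1.89% to 5.96% and 3.96% to 5.08% of all genes. Cluster windows that fell (106) and rose (5) numbered 34 and 2 with -log10 p of at least 1, 0 and 0 of 3 tested with -log10 q of at least 2, 188 and 7 in 50 kb windows and 51 and 0 in 250 kb windows. With -log10 p of at least 1, 35.05% fell and 2.06% rose, against 5.64% and 11.9% of all windows. In 50 kb windows the shares were 60.65% and 2.26%, against 13.1% and 27.2%. In 250 kb windows they were 70.8% and 0%, against 15.9% and 35.1%. The windows that rose numbered 1 at equal covered length, total or autosomal, and 3 after subtraction of the median difference or in the 5 Pgr-Cre pairs alone. With 1 pair left out, 88 to 113 windows fell and 3 to 4 rose. Those were 54.3% to 69.75% and 1.85% to 2.47% of cluster windows, against 10.2% to 18.1% and 24.55% to 30.1% of all windows. The cause was not tested, beyond fewer features passing the coverage filter when weak peaks are dropped. Of 180 recounts of members lost or gained in single comparisons, 155 differed by over 1.5 times from the first count. No paired analysis was possible by replicate number because each list pools its 3 samples; the pairs tested match lists by day, site and Cre line.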
